A study of Homo sapiens with 5 samples.

Results

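The genes described here encode proteins that theophylline is known to act on. They are the cyclic nucleotide phosphodiesterases PDE3A, PDE3B, PDE4A, PDE4B, PDE4C and PDE4D and the adenosine receptors ADORA1, ADORA2A, ADORA2B and ADORA3. Their windows were those that the deposited table assigned to any of the 10 genes by symbol, or that overlapped such a gene with 1500 bases on each side. No methylation value entered this rule, but the genes were chosen with earlier results of these data known. All coordinates are in build hg38 (GRCh38), 112 of the windows were found by overlap only, and 20 of those given by symbol lie outside the gene. This gave 190 of the 288391 windows of 1000 bases measured by reduced representation bisulfite sequencing (RRBS), which cuts DNA at CCGG, converts unmethylated cytosine with bisulfite and reads CpG-rich fragments. The cells were human iPSCs of the line 201B7 (HPS0063), described as wild-type (WT). They were kept for 48 h with theophylline (1 µM), 5-aza-dc (10 nM), etoposide (1 nM) or propyl gallate (1 µM). The vehicle control received 0.1% DMSO, in which the methods say all chemicals were dissolved. The paper reports its methylation array results for iPSCs carrying an mCherry-MBD-nls reporter. Its RRBS methods name only cells, so the paper does not settle whether these cells carried the reporter. Each condition was 1 library of 1 line, so no difference between conditions has a replicate check, and the doses were not the same for all chemicals. The β-value of a window is the methylated share of its CpG calls in percent, and the Wilson and counting intervals are 95% intervals that cover counting error only, with calls from 1 read or from PCR copies counted as independent.

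Phosphodiesterases of the PDE3 and PDE4 families hydrolyse cyclic AMP and so end its signal through protein kinase A, and adenosine receptors raise or lower cyclic AMP through G proteins. Theophylline, a methylxanthine used as a bronchodilator, inhibits phosphodiesterases without much selectivity and blocks adenosine receptors. PDE4 genes have several start sites, from which long and short forms of the enzyme are made. Methylation of a CpG island at a start site usually goes with silencing of that start, while the bodies of genes are mostly methylated. Of the other chemicals, 5-aza-dc (5-aza-2′-deoxycytidine) traps DNA methyltransferases, etoposide is a topoisomerase inhibitor and propyl gallate is an antioxidant food additive.

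RefSeq promoters (GRCh38.p14, 250 bases before to 50 bases after a start) were found for 8 of the 10 genes, 27 promoters in all. The start of 12 of them fell in a measured window, which made 11 windows because 2 starts of PDE4B share 1. These 12 held 4 to 41 CpGs, with a median of 32, while the other 15 held 0 to 16, with a median of 3. The site CCGG was in 11 of the 12 and in 4 of the 15, and in 63.1% of all 35116 promoters. The sequences below were chosen because their windows carry the levels described next, from the CpG-dense PDE4A and ADORA2B starts to the CpG-poor internal start of PDE4B. They are written 5′ to 3′ on the gene's strand, and the capitals mark each CpG.
PDE4A, first start, chr19:10416523-10416822, plus strand: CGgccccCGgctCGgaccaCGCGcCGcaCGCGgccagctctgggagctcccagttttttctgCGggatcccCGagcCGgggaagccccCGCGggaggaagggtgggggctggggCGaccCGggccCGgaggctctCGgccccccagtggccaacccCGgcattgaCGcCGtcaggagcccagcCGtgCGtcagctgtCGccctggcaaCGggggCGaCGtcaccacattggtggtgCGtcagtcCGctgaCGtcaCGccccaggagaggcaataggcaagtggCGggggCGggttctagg
PDE4B, first start, chr1:65792260-65792559, plus strand: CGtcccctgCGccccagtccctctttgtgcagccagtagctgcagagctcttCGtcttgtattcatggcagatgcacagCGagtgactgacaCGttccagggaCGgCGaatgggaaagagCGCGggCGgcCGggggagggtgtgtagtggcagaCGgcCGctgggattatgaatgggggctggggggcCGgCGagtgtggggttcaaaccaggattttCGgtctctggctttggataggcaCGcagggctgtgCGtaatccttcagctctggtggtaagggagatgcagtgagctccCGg
PDE4B, internal start, chr1:66331858-66332157, plus strand: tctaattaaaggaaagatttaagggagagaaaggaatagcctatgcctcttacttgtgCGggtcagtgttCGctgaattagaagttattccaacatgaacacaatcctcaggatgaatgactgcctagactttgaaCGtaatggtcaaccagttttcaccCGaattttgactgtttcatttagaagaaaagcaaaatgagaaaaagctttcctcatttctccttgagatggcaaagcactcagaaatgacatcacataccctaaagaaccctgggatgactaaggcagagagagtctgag
PDE4C, chr19:18224444-18224743, minus strand: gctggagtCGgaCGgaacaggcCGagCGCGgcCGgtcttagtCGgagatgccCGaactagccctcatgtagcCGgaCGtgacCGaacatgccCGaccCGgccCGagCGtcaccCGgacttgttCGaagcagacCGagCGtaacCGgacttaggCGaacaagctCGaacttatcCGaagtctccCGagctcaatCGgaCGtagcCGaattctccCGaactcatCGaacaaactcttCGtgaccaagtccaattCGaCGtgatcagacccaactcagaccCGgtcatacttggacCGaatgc
PDE4D, chr5:59039427-59039726, minus strand: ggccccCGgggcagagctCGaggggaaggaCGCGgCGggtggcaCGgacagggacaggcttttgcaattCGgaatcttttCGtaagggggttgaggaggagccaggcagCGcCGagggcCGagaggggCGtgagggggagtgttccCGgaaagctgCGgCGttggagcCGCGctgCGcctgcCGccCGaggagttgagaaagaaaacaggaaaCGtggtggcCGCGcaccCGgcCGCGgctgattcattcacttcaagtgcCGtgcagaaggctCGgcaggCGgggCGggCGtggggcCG
ADORA1, chr1:203127476-203127775, plus strand: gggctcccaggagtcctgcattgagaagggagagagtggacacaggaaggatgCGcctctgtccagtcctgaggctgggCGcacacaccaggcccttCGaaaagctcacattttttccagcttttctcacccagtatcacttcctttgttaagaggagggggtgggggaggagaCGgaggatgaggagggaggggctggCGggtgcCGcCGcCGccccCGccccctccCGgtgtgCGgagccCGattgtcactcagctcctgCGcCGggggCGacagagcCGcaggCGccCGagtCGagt
ADORA2B, chr17:15944880-15945179, plus strand: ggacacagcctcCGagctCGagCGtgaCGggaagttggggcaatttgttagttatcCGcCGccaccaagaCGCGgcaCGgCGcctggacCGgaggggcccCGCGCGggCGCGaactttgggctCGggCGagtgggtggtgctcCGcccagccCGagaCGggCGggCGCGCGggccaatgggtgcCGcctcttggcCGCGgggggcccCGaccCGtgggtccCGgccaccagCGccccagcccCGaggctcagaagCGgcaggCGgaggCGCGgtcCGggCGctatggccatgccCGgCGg

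The PDE4A promoter has 32 CpGs and 5 CCGG sites. It holds the cyclic AMP response element TGACGTCA (both strands searched) from 3 bases before the start and across it, a match that 1.85% of all promoters had. No other promoter of the members holds it. The shorter letters TGACG, which TGACGTCA contains on both strands, were counted 7 times in it and were in 24.6% of all promoters. The PDE4C and PDE4D promoters have 34 and 32 CpGs, those of ADORA1 and of the first PDE4B start both have 19, and that of ADORA2B has 41, more than 93.3% of all promoters. The internal PDE4B start has 4 CpGs, and 24.5% of all promoters have fewer.

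The windows hold 143178 to 168091 calls per library in these genes and 188847159 to 228919184 in all windows. The median window of the 10 genes had 402 to 502 calls, and 14 of the 190 windows had fewer than 30 calls in at least 1 library. As a check of the label, the windows holding the start that the table gives for markers of pluripotent cells were measured for 4 of 7 markers. Their β-values lay between 0.748% and 1.26% for DNMT3B, 0% (0 of 302 calls, which allows up to 0.993%) and 2.86% for LIN28A, 10.3% and 16.0% for L1TD1 and 83.2% and 87.9% for POU5F1. Those of 3 of 5 fibroblast markers lay between 4.74% and 8.48% for COL1A1, 2.22% and 3.66% for COL1A2 and 0.626% and 1.68% for VIM, so the start windows of both lists were low in all libraries except those of POU5F1 and, in part, L1TD1. The other markers had no such window, and these levels do not tell the cell types apart. Only the start at the outer end of the table's gene was looked at. The POU5F1 window, chr6:31180001-31181000, therefore does not speak for any other start of that gene.

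The measured starts of these genes held little methylation in all 5 libraries, while 15 of the 27 RefSeq promoters had no measured window. A start lay in 13 windows, which belonged to 8 genes, all but ADORA2A and ADORA3. Their β-values ran from 0.714% to 11.2% in the vehicle control, with a median of 2.24%, and from 0.858% to 13.6% after theophylline, with a median of 1.96%. The highest value in any library was 13.6%, at the fourth PDE4A start after theophylline. Each value rests on 178 to 7916 calls.

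Away from the starts the level switched within a few kilobases. Of 26 windows whose centre lay within 1 kb of a start, 21 had a mean β-value of the 5 libraries under 10%, against 5 of 29 at 1 to 5 kb and 3 of 135 farther away. In the last class 126 windows were at 70% or more. Over all 190 windows, 29 were under 10%, 15 between 10% and 70% and 146 at 70% or more. The windows were thus somewhat lower than the table as a whole: 15.3% of them were under 10%, against 9.61% of all windows, and 20.5% lay in CpG islands, against 17.3%. These shares are a description, since neighbouring windows are not independent.

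**Figure D1:**
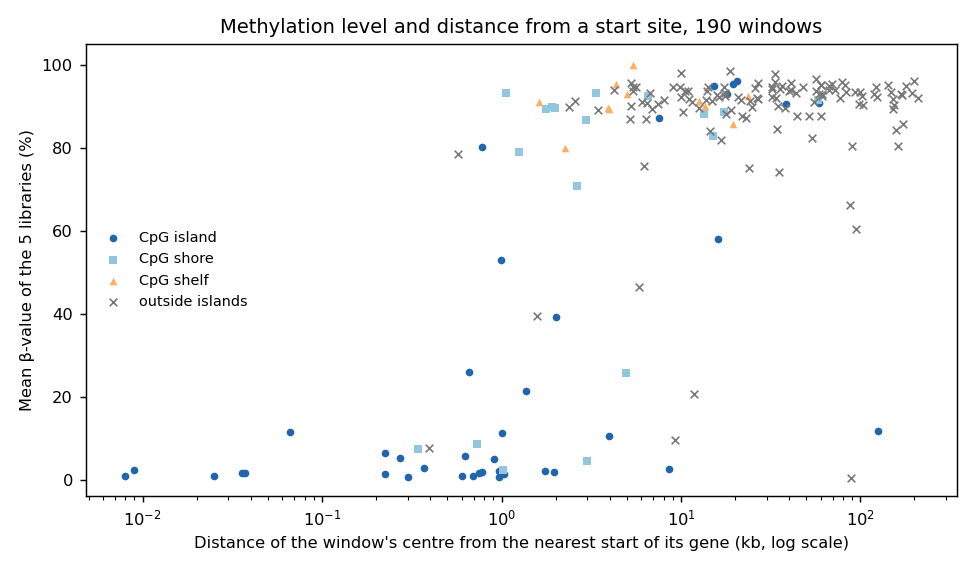
Mean β-value of the 5 libraries in percent (vertical axis) against the distance of a window's centre from the nearest start of its gene in kilobases (log axis), for the 190 windows. Points are coloured by the table's CpG annotation, and 21 of the 26 windows within 1 kb lie under 10%.

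The low windows far from a start were chosen after their values were seen. In PDE4D, the window chr5:59127001-59128000, 88.0 kb from the nearest start and outside any island, was at 0.281% in the vehicle control, 0.889% after theophylline, 0.758% after etoposide, 0% after 5-aza-dc and 0.30% after propyl gallate, on 148 to 356 calls. The 0 of 148 calls after 5-aza-dc allows a share of up to 2.03%. The window was close to the lowest start windows in every library. In PDE4A, the island window chr19:10461001-10462000, 8.57 kb from a start, was at 3.92%, 3.91%, 2.51%, 2.08% and 0.844% in the same order of libraries. The adjoining island window chr19:10460001-10461000 was at 89.2%, 88.3%, 89.5%, 83.5% and 85.6%, so that neighbouring windows of 1000 bases differed by at least 81.4 points in every library. In ADORA1, chr1:203118001-203119000, 9.22 kb from the nearest start, was at 16.3% in the vehicle control and 6.88% with theophylline, against 4.05% with etoposide, 7.60% with 5-aza-dc and 12.9% with propyl gallate, on 141 to 189 calls, and the vehicle control was its highest library.

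The windows of the theophylline target genes had a mean methylation level close to that of the vehicle control after each chemical. The question was whether windows in these genes moved with theophylline. The mean β-value of the 190 windows stood at 72.8% in the vehicle control and 73.7% with theophylline, against 73.3% with etoposide, 71.8% with 5-aza-dc and 73.1% with propyl gallate. Against the vehicle control the mean differed by 0.837 percentage points (0.388 to 1.29) after theophylline, 0.435 percentage points (-0.0157 to 0.885) after etoposide, 0.263 percentage points (-0.198 to 0.725) after propyl gallate and -1.04 percentage points (-1.53 to -0.555) after 5-aza-dc. Over all 288391 windows these differences were 0.975, 0.513, 0.566 and -1.03 points. Each of these 4 values lies within the counting interval of the 190 windows. The log2 ratio of β-values averaged 0.034 after theophylline, 0.0078 after etoposide, 0.012 after propyl gallate and -0.065 after 5-aza-dc, against 0.021, 0.00098, 0.0023 and -0.037 in all windows. After theophylline 109 of the 190 windows were higher and 78 lower, a share of 57.4% higher, against 59.9% of all windows.

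**Figure D2:**
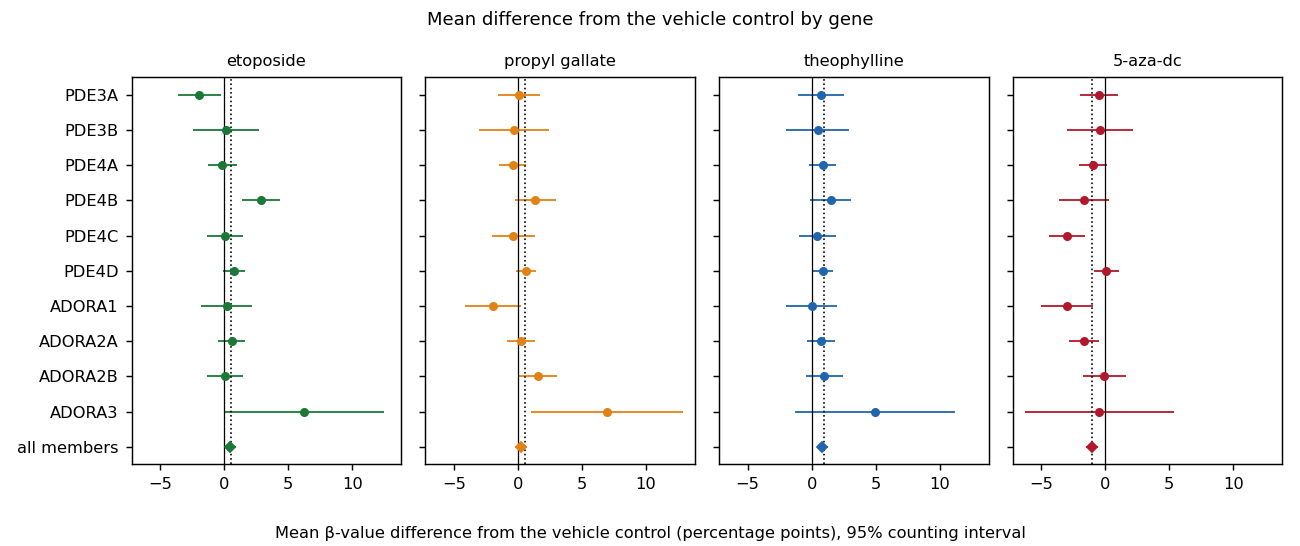
Mean difference in β-value from the vehicle control in percentage points (horizontal axis), with 95% counting intervals, for each gene and for the 190 windows together (diamond). The solid line is 0 and the dotted line the mean over all 288391 windows, which lies within the interval of the 190 windows for each of the 4 chemicals.

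Single windows were compared by Fisher's exact test, two-sided, with the p adjusted over all windows by the method of Benjamini and Hochberg and called at an adjusted p under 0.01. It compares 2 libraries, not 2 conditions. After theophylline 13 of the 190 windows were higher and 4 lower, 6.84% and 2.11%, while 8.13% and 2.86% of all windows were called. After etoposide 17 were higher and 10 lower, 8.95% and 5.26%, against 6.38% and 3.74%. After propyl gallate 13 were higher and 4 lower, the same shares as after theophylline, against 6.55% and 3.71%. After 5-aza-dc 4 were higher and 22 lower, 2.11% and 11.6%, against 3.55% and 10.4%. Both shares were below those of all windows after theophylline and above them after etoposide. These are small counts, and whether the shares differ from those of all windows was not tested. With a difference of at least 10 points, 2 windows were called after theophylline, 5 after etoposide, 2 after propyl gallate and 8 after 5-aza-dc, and 2.27%, 2.32%, 2.22% and 3.64% of all windows, where 2, 5 and 8 are 1.05%, 2.63% and 4.21% of the 190. Since 1 read carries several calls, the test was also run with fewer. With all calls divided by 2, 1 window was called after theophylline (the PDE3B intron window), 4 after etoposide, 0 after propyl gallate and 7 after 5-aza-dc, and 1.23%, 1.13%, 1.13% and 2.68% of all windows. The 7 after 5-aza-dc were all lower and 4 of them were in PDE4C. None of the windows that are named below for a largest called rise or fall of a chemical was called then.

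PDE3A, the PDE3 enzyme of heart, platelets and vascular smooth muscle, is at chr12:20368537-20688583 and had 16 windows. PDE3B, the enzyme of adipocytes and liver through which insulin lowers cyclic AMP, is at chr11:14643804-14872044 and had 9. The mean β-value of the PDE3A windows stood at 73.6% in the vehicle control, 74.4% after theophylline, 71.7% after etoposide, 73.1% after 5-aza-dc and 73.7% after propyl gallate. That of the PDE3B windows stood at 70.4% in the vehicle control and 70.8% with theophylline, against 70.5% with etoposide, 70% with 5-aza-dc and 70.1% with propyl gallate. The order of the libraries differed between the genes, except that theophylline gave the highest mean in both. The theophylline mean exceeded that of the vehicle control by 0.736 percentage points (-1.04 to 2.51) for PDE3A and 0.458 percentage points (-1.99 to 2.90) for PDE3B, and both counting intervals include 0.

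The PDE3A start window chr12:20368001-20369000 was at 1.74% in the vehicle control, 1.75% after theophylline, 2.63% after etoposide, 0.694% after 5-aza-dc and 0.988% after propyl gallate, and its interval in the vehicle control was 0.947 to 3.17%. The next window, chr12:20369001-20370000, was under 1% in all libraries, with 1794 to 2618 calls. The PDE3B start window chr11:14643001-14644000 was at 0.714% in the vehicle control and 1.38% with theophylline, against 0.668% with etoposide, 0.554% with 5-aza-dc and 0% with propyl gallate, where the 0 of 903 calls after propyl gallate allows up to 0.332%. None of these windows passed Fisher's test for any chemical. Inside PDE3A, chr12:20467001-20468000 was at 99.1% in the vehicle control, 98.0% after theophylline, 72.1% after etoposide, 100% after 5-aza-dc and 98.3% after propyl gallate, on 31 to 112 calls. Etoposide alone was low there, with a Wilson interval of 61.4 to 81.5% against 95.1 to 99.8% in the vehicle control, and the fall by 27.0 points (adjusted p = 1.9e-06, Fisher's exact test) was the largest called fall after etoposide in the 190 windows. At the island window chr12:20533001-20534000 the values were 95.5% in the vehicle control and 96.2% with theophylline, against 81.1% with etoposide, 83.8% with 5-aza-dc and 96.6% with propyl gallate. Etoposide and 5-aza-dc were lower there than the other 3 libraries. The largest called rise after 5-aza-dc was by 20 points (adjusted p = 0.00315, Fisher's exact test) at chr12:20560001-20561000, which was at 80.0% in the vehicle control, 88.7% after theophylline, 90.5% after etoposide, 100% after 5-aza-dc and 96.1% after propyl gallate, on 35 to 56 calls. In PDE3B, the intron window chr11:14838001-14839000 was at 90.2% in the vehicle control and 95.9% with theophylline, against 96.2% with etoposide, 92.4% with 5-aza-dc and 91.3% with propyl gallate, on 1065 to 1514 calls, and both etoposide (adjusted p = 5.1e-08, Fisher's exact test) and theophylline (adjusted p = 2.6e-06, Fisher's exact test) were above the vehicle control, by 6.01 and 5.70 points.

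The 4 PDE4 genes encode the cyclic AMP-specific phosphodiesterases that are blocked by rolipram and roflumilast. They had 119 windows. Their mean β-value stood at 71.5% in the vehicle control, 72.4% after theophylline, 72.2% after etoposide, 70.5% after 5-aza-dc and 71.8% after propyl gallate. Theophylline was above the vehicle control by 0.895 percentage points (0.338 to 1.45), and the difference after 5-aza-dc was -0.992 percentage points (-1.62 to -0.362). The number of windows higher after theophylline, 60, was close to the number lower, 57, and the median difference was 0.0419 points.

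PDE4A, at chr19:10416773-10469630, had 31 windows and the lowest mean of the PDE4 genes, 59.8% in the vehicle control and 60.7% after theophylline. A start lay in 4 windows. The first, chr19:10416001-10417000, whose promoter with the response element is printed above, was at 5.65% in the vehicle control and 5.29% with theophylline, against 6.43% with etoposide, 3.02% with 5-aza-dc and 5.44% with propyl gallate. Only 5-aza-dc passed the test there, with a fall by 2.63 points (adjusted p = 6.8e-05, Fisher's exact test). The second start window was at 1.56%, 1.47%, 1.60%, 1.57% and 1.45% in the same order, the third at 7.52%, 7.56%, 6.60%, 6.42% and 8.65% and the fourth at 11.2%, 13.6%, 11.9%, 9.71% and 10.7%. The 4 starts thus kept their order of level, the second lowest and the fourth highest, in every library.

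The largest called rise and the largest called fall after theophylline in the 10 genes were both in PDE4A. The intron window chr19:10445001-10446000 was at 79.4% in the vehicle control, 95.5% after theophylline, 81.4% after etoposide, 98.6% after 5-aza-dc and 97.2% after propyl gallate, on 66 to 120 calls. Theophylline, propyl gallate and 5-aza-dc were high and the vehicle control and etoposide were lower, and theophylline exceeded the vehicle control by 16.2 points (adjusted p = 0.00748, Fisher's exact test). The same window had the largest called rise after propyl gallate, 17.8 points (adjusted p = 0.00904, Fisher's exact test). The window chr19:10454001-10455000, at an exon and intron boundary, was at 47.7% in the vehicle control and 29.6% with theophylline, against 35.9% with etoposide, 43.4% with 5-aza-dc and 40.8% with propyl gallate, on 87 to 195 calls. Theophylline was the lowest library there, with a Wilson interval of 22.7 to 37.8% against 40.8 to 54.7% in the vehicle control, a fall by 18.1 points (adjusted p = 0.00945, Fisher's exact test). Next to it, chr19:10453001-10454000 went the other way, at 64.5% in the vehicle control, 82.0% after theophylline, 90.2% after etoposide, 76.1% after 5-aza-dc and 79.9% after propyl gallate. The vehicle control was the lowest library there by 11.6 points, and the rise after etoposide, 25.7 points (adjusted p = 7.5e-06, Fisher's exact test), was the largest called rise in the 190 windows. The differences there after theophylline, propyl gallate and 5-aza-dc, 17.5, 15.4 and 11.6 points, did not pass the test. The centres of chr19:10453001-10454000 and chr19:10454001-10455000 lie 569 and 1569 bases after a PDE4A start that had no measured window. The largest called fall after propyl gallate was at chr19:10465001-10466000, from 95.5% to 84.9%, on 103 to 183 calls (adjusted p = 0.00761, Fisher's exact test).

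PDE4B, at chr1:65792514-66374579 and the PDE4 enzyme best known from inflammatory cells, had 19 windows with a mean of 77.9% in the vehicle control and 79.4% with theophylline, against 80.8% with etoposide, 76.2% with 5-aza-dc and 79.3% with propyl gallate. The first start window, chr1:65792001-65793000, was at 2.24% in the vehicle control, 1.96% after theophylline, 2.81% after etoposide, 2.49% after 5-aza-dc and 1.81% after propyl gallate. The internal start lies outside any island, in chr1:66332001-66333000, and was at 5.43% in the vehicle control and 6.43% with theophylline, against 9.59% with etoposide, 6.74% with 5-aza-dc and 9.40% with propyl gallate. This window was higher than the first start in each library, and its Wilson interval in the vehicle control was 3.71 to 7.90%. The mean over PDE4B was 2.84 percentage points (1.35 to 4.33) above the vehicle control after etoposide, with 13 windows higher and 6 lower, while pooling the calls of all its windows gave a difference of -0.0212 points. The intron window chr1:65917001-65918000 was between 95.4% and 97.1% in 4 libraries and at 83.8% after 5-aza-dc (adjusted p = 1.6e-06, Fisher's exact test).

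PDE4C, at chr19:18207965-18248200, had 20 windows with a mean of 61.9% in the vehicle control, 62.3% after theophylline, 61.9% after etoposide, 58.8% after 5-aza-dc and 61.5% after propyl gallate. Its measured start, in chr19:18224001-18225000, was at 0.902% in the vehicle control and 1.02% with theophylline, against 0.355% with etoposide, 1.19% with 5-aza-dc and 1.05% with propyl gallate. Island windows near this start were of intermediate level, where a share of cells and a share of alleles cannot be told apart in bulk DNA. On the 3′ side, chr19:18223001-18224000 was at 55.6% in the vehicle control, 56.5% after theophylline, 51.5% after etoposide, 48.9% after 5-aza-dc and 52.6% after propyl gallate, on 2821 to 3892 calls. On the 5′ side, the adjoining window chr19:18225001-18226000 was lower, at 12.8% in the vehicle control and 11.1% with theophylline, against 12.3% with etoposide, 8.06% with 5-aza-dc and 12.1% with propyl gallate. The window after it, chr19:18226001-18227000, was at 43.6% in the vehicle control, 40.7% after theophylline, 39.4% after etoposide, 29.0% after 5-aza-dc and 42.8% after propyl gallate. 5-aza-dc was the lowest library in all 3, with adjusted p = 5.2e-07, 0.00390 and 2.5e-12 by Fisher's exact test. Of the 20 windows, 6 passed the test as lower after 5-aza-dc and 0 as higher, where 10.4% and 3.55% of all windows did. The difference of the gene's mean was -3.01 percentage points (-4.43 to -1.60), against -1.03 over all windows. Over the whole table, windows with a mean β-value between 10% and 70%, such as the 3 island windows above, differed by -2.88 points after 5-aza-dc. The difference after theophylline was 0.454 percentage points (-1.01 to 1.92), with 7 windows higher and 13 lower.

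PDE4D, at chr5:58969038-60522120, spans the longest stretch of the 10 genes and had 49 windows, with a mean of 80.3% in the vehicle control and 81.2% with theophylline, against 81.1% with etoposide, 80.4% with 5-aza-dc and 81.0% with propyl gallate. Of its 44 windows inside the gene, the table called 37 intergenic, and it assigned 5 windows to PDE4D by symbol, all of them outside the gene. Both measured starts were low. The one in chr5:59039001-59040000 was at 0.821% in the vehicle control, 1.07% after theophylline, 0.983% after etoposide, 0.632% after 5-aza-dc and 1.22% after propyl gallate, on 5486 to 7916 calls, and the one in chr5:59893001-59894000 was at 1.48%, 0.858%, 1.45%, 1.43% and 1.08% in the same order. The window chr5:59572001-59573000 was the single one of the 190 that passed the test after all 4 chemicals. It was at 86.3% in the vehicle control and 95.3% with theophylline, against 95.8% with etoposide, 95.2% with 5-aza-dc and 95.8% with propyl gallate, on 484 to 849 calls. The vehicle control was the low library there, and the 4 comparisons share it (adjusted p = 3.5e-06, 1.1e-07, 3.3e-05 and 5.8e-06 in the order of the chemicals, Fisher's exact test). Windows that passed after all 4 chemicals, in whichever direction, were 0.526% of the 190 and 0.606% of all windows.

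The 4 adenosine receptor genes had 46 windows, with a mean of 76.5% in the vehicle control, 77.3% after theophylline, 77.0% after etoposide, 75.0% after 5-aza-dc and 76.9% after propyl gallate. Theophylline exceeded the vehicle control by 0.797 percentage points (-0.0719 to 1.67), an interval that includes 0, with 29 windows higher and 16 lower. ADORA1, the receptor that lowers cyclic AMP and slows the heart, is at chr1:203090654-203167405 and had 13 windows, with means of 78.5% in the vehicle control and 78.5% after theophylline. Its measured start, in chr1:203127001-203128000, was at 3.79% in the vehicle control and 5.83% with theophylline, against 9.78% with etoposide, 6.69% with 5-aza-dc and 5.49% with propyl gallate, on 178 to 302 calls. No chemical passed the test there, and the Wilson intervals of the lowest and the highest library overlapped, at 1.93 to 7.30% in the vehicle control and 6.64 to 14.3% after etoposide. The adjoining island window chr1:203128001-203129000 was at 80.6% in the vehicle control, 73.5% after theophylline, 84.4% after etoposide, 79.3% after 5-aza-dc and 83.4% after propyl gallate. Theophylline was the lowest library there, with a difference of -7.15 points from the vehicle control (adjusted p = 0.00120, Fisher's exact test). In chr1:203117001-203118000, upstream of this start, the values were 86.2% in the vehicle control and 96.0% with theophylline, against 95.9% with etoposide, 81.5% with 5-aza-dc and 83.8% with propyl gallate, and etoposide and theophylline stood together above the other 3 libraries (adjusted p = 9.6e-06 and 1.6e-05, Fisher's exact test).

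ADORA2A, the receptor that raises cyclic AMP in platelets, immune cells and striatal neurons, is at chr22:24417879-24442357 and had 16 windows, none at a start. Its reads share the region of the readthrough gene SPECC1L-ADORA2A and of ADORA2A-AS1, to which the table gave 8 of the 16. The island window chr22:24424001-24425000 was at 5.14% in the vehicle control, 5.42% after theophylline, 5.13% after etoposide, 3.69% after 5-aza-dc and 4.94% after propyl gallate and was the single low window. The intron window chr22:24420001-24421000, in an island shore, was at 80.0% in the vehicle control and 73.7% with theophylline, against 60.2% with etoposide, 65.0% with 5-aza-dc and 74.6% with propyl gallate, on 206 to 380 calls. Its fall by 15.0 points after 5-aza-dc (adjusted p = 0.00014, Fisher's exact test) was the largest called fall after this chemical among the windows with at least 30 calls in all libraries, and the fall after etoposide was 19.8 points (adjusted p = 2e-05, Fisher's exact test). Theophylline and propyl gallate lay between them and the vehicle control and did not pass the test.

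ADORA2B, a receptor that raises cyclic AMP and has a low affinity for adenosine, is at chr17:15945130-15975746 and had 15 windows, all assigned by symbol. The island at its start was covered by 3 windows in a row. The window before the start, chr17:15944001-15945000, was at 6.14% in the vehicle control, 7.76% after theophylline, 5.51% after etoposide, 3.25% after 5-aza-dc and 5.28% after propyl gallate, on 3433 to 4579 calls. The start window chr17:15945001-15946000 was at 3.43%, 3.84%, 2.12%, 2.22% and 2.42% in the same order, and the next one, chr17:15946001-15947000, at 21.6%, 24.3%, 20.6%, 16.5% and 23.6%. Theophylline was the highest library and 5-aza-dc below the vehicle control in all 3. The 3 falls after 5-aza-dc passed the test (adjusted p = 5.9e-08, 0.00655 and 0.00042, Fisher's exact test). Etoposide was the lowest library at the start window, and its fall by 1.32 points passed as well (adjusted p = 0.00694, Fisher's exact test). The differences after theophylline, 1.62, 0.409 and 2.73 points, did not pass.

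ADORA3, a receptor that lowers cyclic AMP and is known from mast cells and other immune cells, is at chr1:111499429-111503633 and had 2 windows, both upstream of the gene. The nearer, chr1:111509001-111510000, was at 40.3% in the vehicle control and 47.5% with theophylline, against 48.0% with etoposide, 47.4% with 5-aza-dc and 49.4% with propyl gallate. The farther, chr1:111515001-111516000, was at 19.9% in the vehicle control, 22.5% after theophylline, 24.6% after etoposide, 11.8% after 5-aza-dc and 24.6% after propyl gallate, on 661 to 891 calls. The vehicle control was the lowest library in the first and 5-aza-dc in the second, where its fall by 8.06 points passed the test (adjusted p = 9.7e-05, Fisher's exact test). With 2 windows, the gene mean of ADORA3 has the widest counting intervals of the 10.

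**Figure D3:**
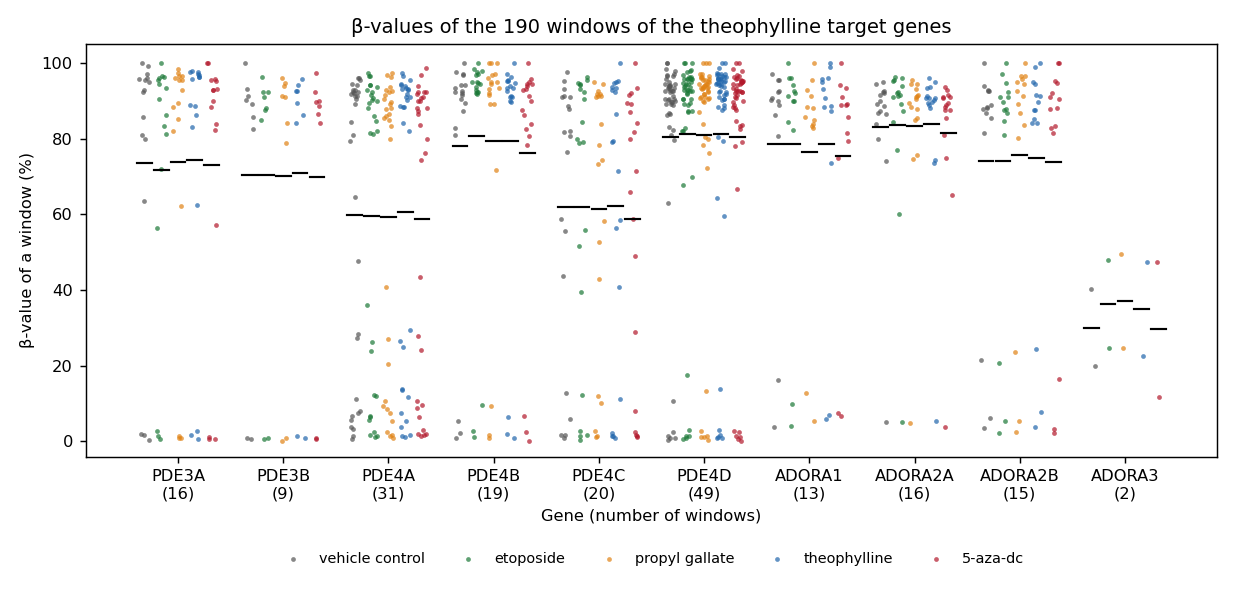
β-value in percent (vertical axis) of every window of the 10 genes in each of the 5 libraries, with the number of windows under each gene. Points are windows and black bars the mean of a library. Most windows lie above 70% or under 10%, and those of ADORA3 lie between 11.8% and 49.4%.

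The 13 windows called as higher after theophylline lay in PDE4D (4), PDE4A (3), and 1 each in PDE3A, PDE3B, PDE4B, PDE4C, ADORA1 and ADORA2A, and rose by 3.37 to 16.2 points, with a median of 5.70. The 4 called as lower were 2 in PDE4A and 1 each in PDE4D and ADORA1. None of the 17 held a start, none was in ADORA2B or ADORA3, and all but 3 were above 70% in the vehicle control.

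**Figure D4:**
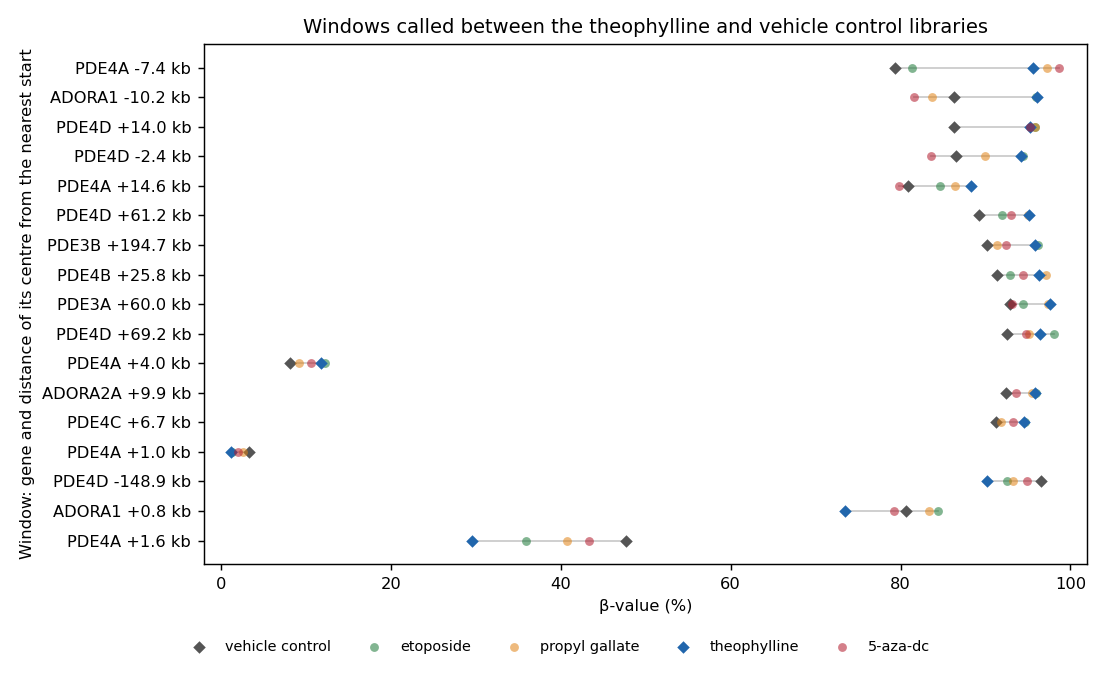
β-value in percent (horizontal axis) in each of the 5 libraries of the 17 windows called between theophylline and the vehicle control, ordered by that difference. Diamonds mark these 2 libraries, and windows are named by gene and by the distance of their centre from the nearest start in kilobases. The 2 PDE4A windows at the ends of the order differ by 16.2 and -18.1 points.

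In these genes, as in the whole table, 5-aza-dc was the library most often lowest. 5-aza-dc was the lowest of the 5 libraries in 66 of the 190 windows, 34.7%, against 35.1% of all windows, and theophylline in 16, 8.42%, against 12.3%. Etoposide was the highest in 49, 25.8%, against 21.7%, and theophylline in 41, 21.6%, against 26.8%. A library stood at least 10 points below each of the other 4 in 6 windows for 5-aza-dc, 2 for etoposide, 1 for the vehicle control and 0 for propyl gallate and theophylline, and in 1.8%, 0.554%, 0.534%, 0.442% and 0.38% of all windows. The 6 after 5-aza-dc were 2 each in PDE4B and PDE4C and 1 each in ADORA1 and PDE4D. The PDE4D window held 10 calls after 5-aza-dc, 1 of the PDE4B windows 47 and the ADORA1 window 82. None of these passed Fisher's test. Of the 2 for etoposide, the PDE4A window held 24 calls after etoposide and did not pass either. A library stood as far above the others in 1 window, a PDE4C window after theophylline with 10 calls in that library, and in 0.204% of all windows for theophylline, 0.195% for etoposide, 0.163% for 5-aza-dc, 0.162% for propyl gallate and 0.106% for the vehicle control.

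Other genes of cyclic AMP and adenosine signalling were 59 genes in 6 groups, of which 58 had a window (all but PDE7A), 1189 windows in all. After theophylline 104 windows were called as higher and 28 as lower, 8.75% and 2.35%, close to the 8.13% and 2.86% of all windows. In the 18 other phosphodiesterase genes with a window, 24 higher and 9 lower of 346 were called, or 6.94% and 2.60%. In the 10 adenylyl cyclases, which make cyclic AMP, the calls were 18 higher and 4 lower of 257, in protein kinase A and CREB genes, through which cyclic AMP acts on transcription, 36 higher and 7 lower of 362, and in the EPAC genes RAPGEF3 and RAPGEF4 1 higher and 0 lower of 32. In the 12 genes that make, carry and break down adenosine, the calls were 24 higher and 4 lower of 163, or 14.7% and 2.45%. Windows called as higher in these genes were 8.59% after etoposide, 7.36% after propyl gallate and 4.91% after 5-aza-dc. The mean β-value was 77.1% in the vehicle control and 79.3% after theophylline, against 78.4% with etoposide, 76.1% with 5-aza-dc and 78.4% with propyl gallate. In HDAC1, HDAC2 and HDAC3, which encode histone deacetylases, the calls were 1 higher and 4 lower of 29, or 3.45% and 13.8%. Their mean β-value was 68.0% in the vehicle control and 67.1% after theophylline, against 67.4% with etoposide, 67.3% with 5-aza-dc and 67.6% with propyl gallate. After etoposide, 5-aza-dc and propyl gallate, 2, 3 and 1 of these windows were called as lower and 0 as higher. All these comparisons share the vehicle control. None of the 1189 windows was called after theophylline with a difference of at least 25 points. Over the 1189 windows, 40 higher and 130 lower were called after 5-aza-dc, 3.36% and 10.9%, against 3.55% and 10.4% of all windows. After etoposide 80 higher and 43 lower were called, 6.73% and 3.62%, against 6.38% and 3.74%, and after propyl gallate 82 higher and 41 lower, 6.90% and 3.45%, against 6.55% and 3.71%.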

How the data were processed

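RRBS libraries of 201B7 iPSCs, 1 per condition, were analysed from the deposited table. The authors used TrimGalore for trimming and Bismark for alignment, and called methylation and formed 1000-base windows with methylKit, normalizing coverage and keeping windows present in every library, on hg38 per the submitters' processing notes. For the vehicle control the deposited values are counts of methylated and unmethylated calls. For the chemicals the deposited values are scores, since the authors scaled the calls by a factor per library and rounded them. The factors were recovered (1.15 for theophylline, 1.18 for etoposide, 1.21 for 5-aza-dc and 1.09 for propyl gallate), and the calls given here are divided by them. The deposited β-values are fractions of the scaled calls, printed here in percent.

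Python 3.11.15, numpy 2.4.6, pandas 2.3.3 and scipy 1.17.1 were used. Windows were matched to genes by the table's symbol or by overlap with the gene positions that the table gives, with 1500 bases on each side. Start sites were those of the table and of RefSeq (GRCh38.p14). The scripts were tested on simulated data. The median Wilson interval of a window was 5.24 points wide in the vehicle control and 5.43 after theophylline. Fisher's exact test, two-sided, ran on the recovered calls of all 288391 windows with Benjamini-Hochberg adjustment at 0.01. Windows at 0 in either library were left out of log2 ratios.

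The members, the lists and the naming rule were chosen with earlier results of these data known. Named windows were those with a start, and for each chemical the largest rise and fall among windows called with at least 30 calls in all libraries, and those called after theophylline with at least 10 points. Other windows were chosen after their values were seen. Alternatives changed the assignment of windows, the coverage minimum, the measure, pooling of calls, the test's input and its threshold.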

Additional observations from a re-analysis of the deposited data

How the results depend on the processing

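The mean β-value difference of the 190 windows stayed within its counting error in 30 of 32 values under other coverage minimums, references, windows and measures. Pooling all calls moved the other 2, propyl gallate to -0.631 points from 0.263 and 5-aza-dc to -3.82 from -1.04. Each library was pooled with its own calls. A pooled difference therefore holds differences between libraries in how calls were spread over windows, besides the heavier weight of windows with many calls. These parts were not told apart. Propyl gallate also changed sign with windows by symbol alone (-0.114 points), within its counting interval, which includes 0. The mean log2 ratio kept its value within counting error in 23 of 24, and the exception was propyl gallate with windows by symbol alone (-0.040 against 0.012). The windows called by Fisher's test (27, 17, 17 and 26 for etoposide, propyl gallate, theophylline and 5-aza-dc) became 10, 5, 6 and 13 with the 78 windows by symbol alone, 5, 2, 2 and 8 with at least 10 points, 2, 0, 0 and 0 with at least 25 points, and 4, 0, 1 and 7 with calls divided by 2, settings that keep fewer windows or calls by construction. With calls divided by 2, 21 windows had an unadjusted p under 0.05 after propyl gallate. The other 16 counts stayed within 1.5 times. Of the gene means, 281 of 316 stayed within counting error and 31 moved beyond it, while 4 whose counting interval excluded 0 reversed. PDE3A after etoposide was 2.41 points pooled and 0.534 as a median against -1.95, PDE4B after etoposide -0.0212 pooled against 2.84, and ADORA2B after propyl gallate -1.82 pooled against 1.53, and the cause was not tested. No paired analysis was possible because each condition had 1 library, and no library could be left out for the same reason. Depth limits what a window can show, and the median Wilson interval of a window was 5.24 points wide in the vehicle control. Windows with many calls passed the test at smaller differences, such as -1.21 points after 5-aza-dc at the ADORA2B start window.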
